A study of Mus musculus with 8 samples.

Results

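The genes described here are 9 markers of mouse monocytes, namely Ly6c2, Ccr2, F13a1, Cx3cr1, Cd14, Ms4a6c, Fcgr1, Lyz2 and Nr1h3, taken by name from a list that was drawn up with earlier results of these data known. They are 9 of the 41214 genes counted, and all 9 were found by symbol and passed the filter on low counts in every comparison. RNA was sequenced from bone marrow of 8 C57Bl6 mice in 4 groups of 2. The KD mice carry a human GFI1 cDNA knocked into the mouse Gfi1 locus, with a floxed neo cassette in antisense orientation that keeps GFI1 expression low, and the KO mice lack Gfi1. The young KD mice (39 and 42 days old) and young KO mice (48 and 44 days) were healthy. The sick KD mice were 187 and 78 days old and are labelled as having AML, whereas the study's text describes a myeloproliferative disease in KD mice. The old KO mice, 158 and 101 days old, had no AML. No wild-type marrow was analysed here, so every group carries an altered Gfi1 locus, and in the sick KD group disease, age and genotype cannot be told apart beyond what the old KO and young KD mice provide. In each group the mice are numbered in the order just given. Gfi1 itself was counted at 5.49 and 7.15 CPM (counts scaled by TMM to a common library size) in sick KD, 6.17 and 7.03 in young KD, 14.0 and 14.4 in young KO, and 13.3 and 29.7 in old KO mice. These are counts on the mouse gene, and whether reads of the human cDNA were counted there was not tested. They were higher in the KO libraries and do not check the labels, and the groups are named by their labels throughout.

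Monocytes arise in the marrow from shared myeloid progenitors and circulate as classical, Ly6C-high cells and as patrolling, Ly6C-low cells. Classical monocytes leave the marrow through CCR2, the receptor for the chemokine CCL2, and enter inflamed tissue. Patrolling monocytes survey the vessel wall, depend on the nuclear receptor NR4A1 and carry high levels of CX3CR1, the receptor for fractalkine. In bulk marrow a change in such a gene can come from more or fewer cells or from more or less RNA in each cell, and these cannot be told apart in these data.

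The libraries held 26642067 to 42679114 counts on genes, so 8 of the 9 genes rest on at least 769 counts in every mouse and Nr1h3 on 38 to 140. Of the uniquely aligned reads, 38.8% and 42% lay outside annotated genes in the sick KD libraries against 26.9% to 33.8% in the other 6, and 49.3% and 53.2% of the aligned reads were not uniquely placed against 42.2% to 44.7%. The part of these differences in the results below was not tested. All 8 libraries are labelled total bone marrow. The study's text describes RNA sequencing of bone marrow cells for both the young and the older comparison of KO with KD. It separately describes sequencing of sorted myeloid cells, which a legend gives as from young mice. Haemoglobin and B-cell genes were present, whereas Ly6g, a marker of mature neutrophils, stood at only 0.136 to 0.545 CPM.

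The 250 bases upstream of the RefSeq start (for Ly6c2, the first of 2 listed starts) are shown for the 4 genes whose level passed the threshold in at least 1 comparison below (GRCm38.p6, each 5′ to 3′ on the strand of its gene). The windows are chr15:75111972-75112221 on the minus strand for Ly6c2, chr19:11469118-11469367 on the plus strand for Ms4a6c, chr9:120068297-120068546 on the minus strand for Cx3cr1 and chr3:96293970-96294219 on the minus strand for Fcgr1. Capitals mark exact matches, on either strand, to 4 short motifs: GAGGAA for PU.1, TTGCNNAA for C/EBP, AAATCA for GFI1 and TTCNNNGAA for STAT factors.
Ly6c2: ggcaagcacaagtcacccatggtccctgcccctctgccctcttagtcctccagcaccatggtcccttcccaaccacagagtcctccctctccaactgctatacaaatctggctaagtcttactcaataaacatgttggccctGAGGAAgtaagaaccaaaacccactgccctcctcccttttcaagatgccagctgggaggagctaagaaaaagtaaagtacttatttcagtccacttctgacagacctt
Ms4a6c: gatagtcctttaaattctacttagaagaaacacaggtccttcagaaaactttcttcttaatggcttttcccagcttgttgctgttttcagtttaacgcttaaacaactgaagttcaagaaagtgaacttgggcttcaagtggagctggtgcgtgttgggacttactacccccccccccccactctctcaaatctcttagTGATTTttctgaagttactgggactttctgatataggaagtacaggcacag
Cx3cr1: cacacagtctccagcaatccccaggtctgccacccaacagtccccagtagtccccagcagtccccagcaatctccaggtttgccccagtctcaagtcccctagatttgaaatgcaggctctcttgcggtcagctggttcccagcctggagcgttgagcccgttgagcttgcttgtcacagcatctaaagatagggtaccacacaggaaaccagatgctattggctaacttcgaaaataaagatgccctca
Fcgr1: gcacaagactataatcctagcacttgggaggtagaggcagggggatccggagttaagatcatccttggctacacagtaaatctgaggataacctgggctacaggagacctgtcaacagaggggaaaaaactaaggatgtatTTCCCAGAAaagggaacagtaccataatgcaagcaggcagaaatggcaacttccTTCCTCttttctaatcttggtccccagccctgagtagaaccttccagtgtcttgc
The Ly6c2 window held 1 PU.1 match (2 in the window of its second start, which is not shown), the Ms4a6c window 1 GFI1 match, and the Fcgr1 window 1 PU.1 and 1 STAT match, with no overlap between matches. The Cx3cr1 window held none of these letters. Such matches are frequent: of 32851 windows of the same length, 23.3% held the PU.1 letters, 12.4% those of GFI1, 9.56% those of C/EBP and 7.02% those of STAT. They describe the sequence and say nothing about binding.

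Compared per kb of annotated exon, the 9 genes spanned a wide range of levels. Lyz2, which encodes the lysozyme of monocytes, macrophages and granulocytes, averaged 10786 CPM per kb over the 8 mice. F13a1, the catalytic subunit of coagulation factor XIII, averaged 451, Ly6c2, a GPI-anchored surface antigen, 421, Ccr2 355 and Ms4a6c, a multi-span membrane protein, 296. Cx3cr1 averaged 35.6, Fcgr1, the high-affinity receptor for IgG, 31.8, and Cd14, the co-receptor for lipopolysaccharide, 22.2. Nr1h3, the oxysterol-sensing nuclear receptor LXR alpha, was lowest at 1.21 CPM per kb. Lyz2 exceeded F13a1, Ms4a6c exceeded Cx3cr1 and Cd14 exceeded Nr1h3 in 8 of 8 libraries. Within the middle blocks the order was less fixed. F13a1 stood above Ly6c2, Ly6c2 above Ccr2 and Ccr2 above Ms4a6c in 6 of 8 libraries each. Fcgr1 stood above Cd14 in 6 and Cx3cr1 above Fcgr1 in 5. The differences between these neighbours were not tested.

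Among the classical genes, Ly6c2 (chromosome 15, 75108158 to 75111970, minus strand) and Ms4a6c (chromosome 19, 11469366 to 11482192, plus strand) were highest in sick KD marrow. Ly6c2 measured 1368 and 1469 CPM in the sick KD mice, 1007 and 1281 in old KO, 1126 and 1020 in young KO and 931 and 1035 in young KD mice. The sick KD mice were the 2 highest of the 8, and the other 3 groups overlapped one another. Ms4a6c measured 870 and 827 CPM in sick KD mice, 560 and 571 in old KO, 585 and 493 in young KO and 399 and 557 in young KD mice. The highest mouse outside the sick KD group stood at 585 CPM, and the young KD mice differed most between themselves.

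Ccr2 and F13a1 were less clearly tied to a group. Ccr2 (chromosome 9, 124101950 to 124113557, plus strand) measured 2812 and 2376 CPM in sick KD, 2575 and 2296 in old KO, 2533 and 2050 in young KO and 1950 and 2590 in young KD mice. All 4 groups overlapped, and the highest mouse had only 1.44 times the lowest level, the narrowest range of the 9 genes. F13a1 (chromosome 13, 36867178 to 37050244, minus strand) measured 4021 and 3565 CPM in sick KD, 3032 and 3177 in old KO, 3064 and 2603 in young KO and 1986 and 2868 in young KD mice. The sick KD mice were again the 2 highest.

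Cx3cr1 (chromosome 9, 119901616 to 120069879, minus strand) ran the other way. It measured 81.0 and 104 CPM in sick KD mice, 218 and 201 in old KO, 186 and 145 in young KO and 153 and 195 in young KD mice. The sick KD mice were the 2 lowest of the 8 and the old KO mice the 2 highest. Set against Ccr2 within the same library, a ratio chosen after the values were seen, there were 2.88 and 4.39 Cx3cr1 counts per 100 Ccr2 counts in sick KD mice, 8.47 and 8.74 in old KO, 7.36 and 7.08 in young KO and 7.85 and 7.54 in young KD mice. The sick KD ratios thus lay well under the range of 7.08 to 8.74 in the other 6 mice.

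Fcgr1 (chromosome 3, 96282909 to 96293969, minus strand) separated the 4 KO mice from the 4 KD mice. It measured 51.2 and 53.4 CPM in sick KD and 63.1 and 76.2 in young KD mice, against 88.7 and 116 in old KO and 96.5 and 114 in young KO mice. Each of the 4 KO mice stood above each of the 4 KD mice, and the sick KD mice were lowest. How many of all genes split the mice in this way was not counted. Among the genes of resident macrophages listed below, Axl did so too, at 41.0 to 50.2 CPM in KO and 11.3 to 33.2 in KD mice, whereas Adgre1 did not.

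The other 3 genes showed smaller or less regular differences. Lyz2 (chromosome 10, 117277331 to 117282321, minus strand) measured 17186 and 16988 CPM in sick KD, 13754 and 15160 in old KO, 13600 and 11285 in young KO and 12056 and 13521 in young KD mice, with the sick KD mice highest. Cd14, on chromosome 18, measured 33.4 and 38.3 CPM in sick KD, 30.7 and 54.2 in old KO, 29.1 and 44.1 in young KO and 54.1 and 23.2 in young KD mice, so that the 2 young KD mice held almost the whole range. Nr1h3 (chromosome 2, 91184061 to 91202834, minus strand) measured 1.53 and 2.49 CPM in sick KD, 3.84 and 2.78 in old KO, 3.18 and 3.56 in young KO and 3.02 and 3.95 in young KD mice, and the sick KD mice were the 2 lowest.

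**Figure D1:**
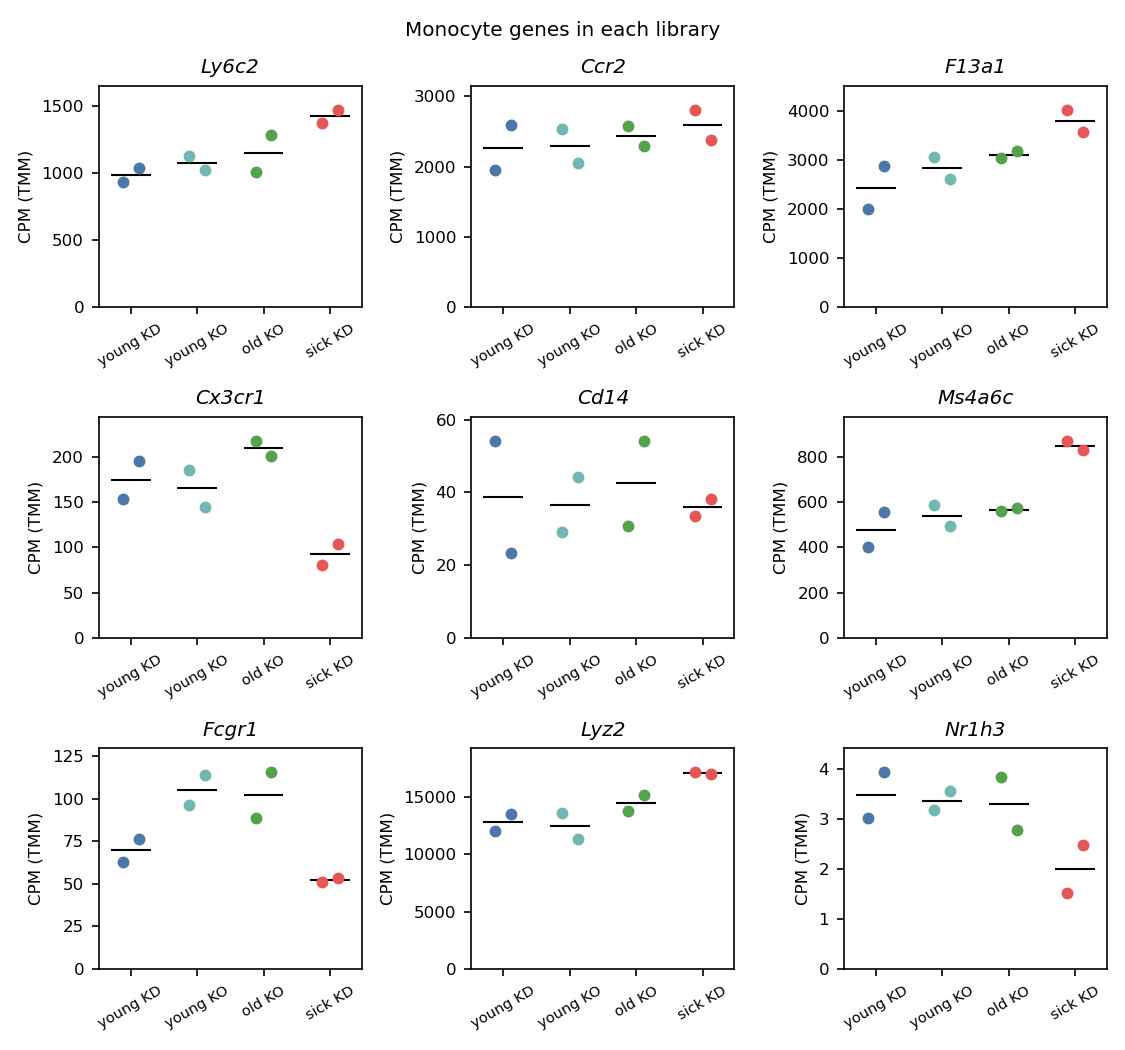
CPM of each of the 9 genes (vertical axes from 0) in the 2 mice of each group (points) with the group mean (line). In the sick KD mice Ly6c2, F13a1, Ms4a6c and Lyz2 were the highest of the 8 and Cx3cr1, Fcgr1 and Nr1h3 the lowest, while Ccr2 and Cd14 overlapped between groups.

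In healthy young marrow, where KO was set against KD, the monocyte genes showed no difference past the threshold. With edgeR's quasi-likelihood test and Benjamini-Hochberg adjustment over all genes, 0 of the 9 passed an adjusted p of 0.05, 1 had an unadjusted p under 0.05 and DESeq2 called 1, against 0.0404% of all 14839 genes called by edgeR. The gene in both cases was Fcgr1, at a log2 fold change of 0.59 ± 0.13 (standard error, n = 2 mice a group as in all comparisons), with an unadjusted p of 0.00345 and an edgeR adjusted p of 1. It was also the only one of the 9 whose groups did not overlap, where 27.0% of all genes did not overlap. The other 8 lay between -0.09 for Cd14 and 0.22 for F13a1. With 2 mice a group, the smallest two-sided p that an exact permutation test allows is 0.33.

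In old KO against sick KD marrow, which compares healthy with diseased mice that also differ in genotype, Cx3cr1 and Fcgr1 were higher and Ms4a6c lower in old KO. Cx3cr1 differed by 1.18 ± 0.16 on the log2 scale (edgeR adjusted p = 0.00628), a 2.26-fold higher level. Fcgr1 differed by 0.97 ± 0.15 (edgeR adjusted p = 0.00955), or 1.96-fold. Ms4a6c fell by 0.58 on the log2 scale with a standard error of 0.14 (edgeR adjusted p = 0.0301). These are 3 of 9 genes beside 18.1% of all 14470 genes called, with 2 higher beside 9.93% and 1 lower beside 8.22%. The remaining 6 did not pass, from -0.31 ± 0.17 for Ly6c2 to 0.71 ± 0.34 for Nr1h3. Groups did not overlap for 7 of the 9, beside 66.0% of all genes. The calls of Cx3cr1 and Fcgr1 held with each mouse left out in turn, whereas Ms4a6c missed the threshold without sick KD 1, old KO 1 or old KO 2 (edgeR adjusted p from 0.0791 to 0.179).

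In sick KD against young KD marrow, where disease and age change together, Ms4a6c and Ly6c2 rose and Cx3cr1 fell. Ms4a6c was 1.77-fold higher, at a log2 fold change of 0.82 ± 0.17 (edgeR adjusted p = 0.0235). Ly6c2 was 1.44-fold higher, at 0.52 ± 0.12 (edgeR adjusted p = 0.0297). Cx3cr1 fell by 0.92 on the log2 scale with a standard error of 0.17 (edgeR adjusted p = 0.0182), to 0.530 of its level in young KD mice. The 3 calls of 9 stand beside 20.9% of all 14656 genes, with 2 higher beside 9.45% and 1 lower beside 11.4%, and 7 of 9 genes did not overlap between groups beside 66.7% of all genes. F13a1 (0.64 ± 0.19), Lyz2 (0.41 ± 0.12) and Fcgr1 (-0.42 ± 0.13) had edgeR adjusted p of 0.0590, 0.0577 and 0.0600, and Nr1h3 (-0.79 ± 0.32) had 0.126. Ccr2 (0.19 ± 0.17) and Cd14 (-0.12 ± 0.36) stayed far from the threshold. Without young KD 1 the Ly6c2 and Ms4a6c calls were lost (edgeR adjusted p of 0.358 and 0.182), and without young KD 2 that of Ly6c2 (0.147), while Cx3cr1 kept its call with each mouse left out.

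Old KO against young KO compares ages within healthy KO mice, and 0 of the 9 genes passed in edgeR, beside 0.929% of all 14847 genes, and DESeq2 also called 0. Cx3cr1 alone had an unadjusted p under 0.05, at 0.34 ± 0.13 (unadjusted p = 0.0454, edgeR adjusted p = 0.546). It and Lyz2 (0.21 ± 0.17) were the 2 genes whose groups did not overlap, where 37.7% of all genes did not. Fcgr1 measured -0.04 ± 0.15 here, Ms4a6c 0.07 ± 0.11 and Ly6c2 0.09 ± 0.15.

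Whether the KO to KD difference changed from the young healthy mice to the older ones was tested as an interaction, the old KO to sick KD difference minus the young KO to young KD difference. Cx3cr1 alone passed, at 1.25 ± 0.25 on the log2 scale (edgeR adjusted p = 0.0297), beside 7.43% of all 15102 genes. The young difference was -0.08 ± 0.16 and the older one 1.18 ± 0.16. Leaving out a mouse cost the call in 6 of 8 cases (edgeR adjusted p from 0.0567 to 0.0853), namely without sick KD 1, old KO 1 or any of the 4 young mice, and it held without sick KD 2 or old KO 2. The value stayed between 1.06 and 1.44 throughout. Ms4a6c followed at -0.76 ± 0.22 (edgeR adjusted p = 0.0753), and without young KD 2 it passed (edgeR adjusted p = 0.0398) where Cx3cr1 did not, while Fcgr1, at 0.37 ± 0.21 (edgeR adjusted p = 0.299), was not shown to differ between the young and the older comparison.

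**Figure D2:**
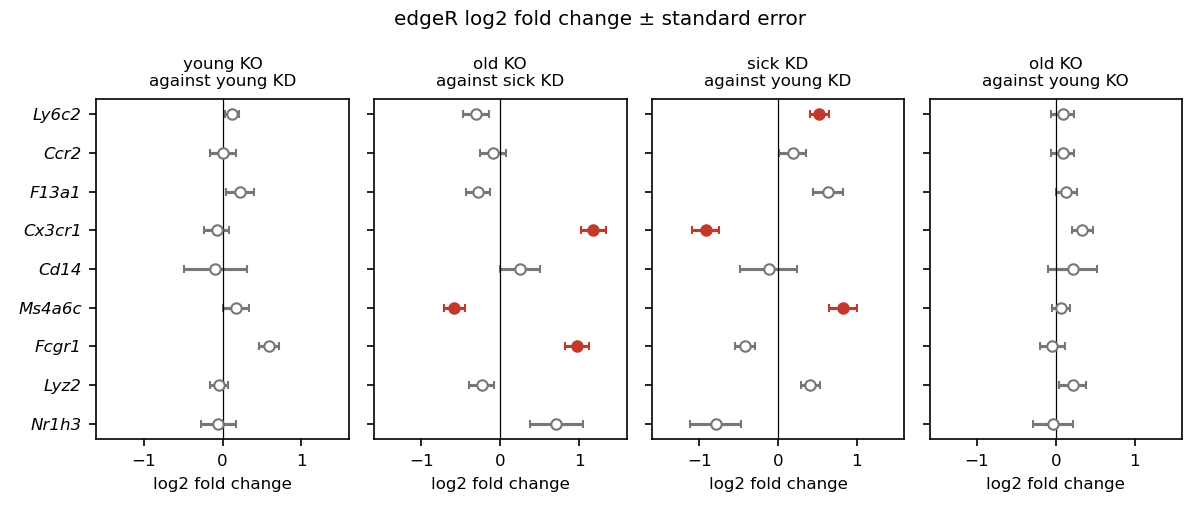
Log2 fold change (horizontal axes, edgeR) with its standard error for the 9 genes in 4 comparisons, filled red where the adjusted p was under 0.05. Calls appear only in the 2 comparisons that include sick KD mice, where Cx3cr1 and Ms4a6c took opposite signs in each.

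Close relatives of 3 members share sequence with them. Of the 50-base pieces of the longest transcript, 13.1% of Ly6c2 were also found in another gene (mainly Ly6c1), 15.4% of Lyz2 (Lyz1) and 11.3% of Ms4a6c (Ms4a6b), which fell to 3.6%, 1.97% and 0.574% at 100 bases. Ly6c1 received only 0.110 to 0.186 counts per 100 of Ly6c2, and Lyz1 0.0499 to 0.0687 per 100 of Lyz2. Ms4a6b and Ms4a6d, neighbours in the same family, are expressed in their own right. Ms4a6d measured 142 and 145 CPM in sick KD, 80.1 and 67.0 in old KO, 69.1 and 73.4 in young KO and 41.8 and 63.3 in young KD mice, and passed in sick KD against young KD (1.44 ± 0.19, edgeR adjusted p = 0.00814), in old KO against sick KD (-0.96 ± 0.13, edgeR adjusted p = 0.00660) and in the interaction (-1.41 ± 0.25, edgeR adjusted p = 0.0230). Ms4a6b, at 303 and 296 CPM in sick KD and 176 and 241 in young KD mice, did not (0.52 ± 0.16, edgeR adjusted p = 0.0680). Cx3cr1 is uncertain in another way: its annotated span overlaps Csrnp1, Xirp1 and Gorasp1 on the same strand and 6 genes on the other. Nr1h3 overlaps Gm13783 on the same strand and Gm23390 on the other, F13a1 overlaps 2 antisense genes and Ms4a6c 1 gene on the other strand, and whether strand was used in counting is not given in the sources used here.

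Beyond the 9, some other classical monocyte genes were higher in sick KD marrow. Of 22 listed, 9 were higher and 0 lower in sick KD against young KD (median log2 fold change 0.46, against 0.01 over all genes), beside 9.45% of all genes higher and 11.4% lower. Vcan, a matrix proteoglycan, had the largest change, with 1488 and 1141 CPM in sick KD against 194 and 376 in young KD mice (2.20 ± 0.32, edgeR adjusted p = 0.00968). Ms4a6d, given above, and Chil3, a chitinase-like secreted protein, followed. Chil3 measured 6195 and 4209 CPM in sick KD, 890 and 1506 in old KO, 1531 and 1387 in young KO and 2536 and 1835 in young KD mice (1.24 ± 0.23, edgeR adjusted p = 0.0180). The other 6 were Fn1, Lgals3, Klf4, Tgfbi, Cfp and Ly86. Leaving out young KD 1 reduced the 9 calls to 4, and leaving out young KD 2 to 6. Old KO against sick KD gave 4 lower and 0 higher, with a list median of -0.10, beside 9.93% of all genes higher and 8.22% lower. The 4 were Vcan (-2.72 ± 0.30), Chil3 (-2.12 ± 0.30), Ms4a6d and Fn1 (-0.90 ± 0.19). With trends in GC content, length and gene span removed 9 were lower, but 2317 of all genes were lower there, against 1189 in the main fit. In the interaction Vcan (-2.70 ± 0.49, edgeR adjusted p = 0.0232) and Ms4a6d passed, 2 of 22 beside 7.43% of all genes. These 2 calls became 0 without sick KD 1, old KO 1, young KO 1 or young KO 2, 1 without young KD 1 and 4 without sick KD 2 or old KO 2, and 7 in DESeq2 and 8 with the trends removed. Over all genes the interaction called 1951 in DESeq2 and 2126 with the trends removed, against 1122 in the main fit. Csf1r, the receptor for the monocyte growth factor M-CSF, differed little, with 599 and 762 CPM in sick KD and 648 and 643 in young KD mice (0.07 ± 0.14). In young KO against young KD 0 of 22 passed in edgeR (2 at an unadjusted p under 0.05, 0 in DESeq2), and in old KO against young KO also 0 (5, and 1 in DESeq2).

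**Figure D3:**
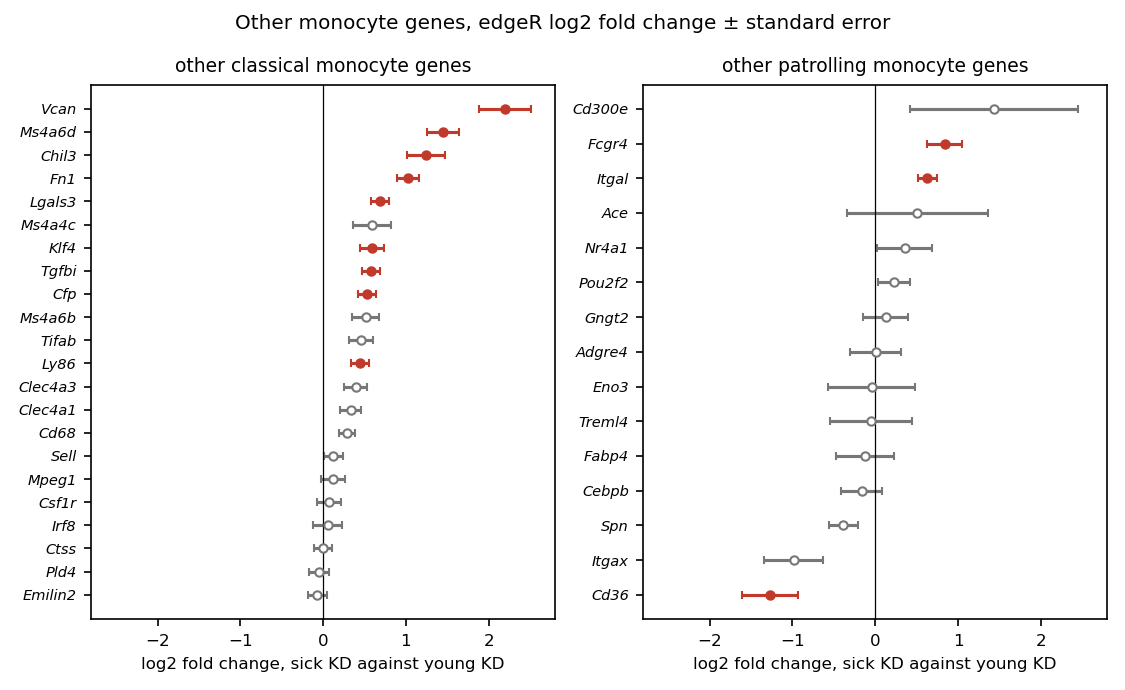
Log2 fold change with standard error in sick KD against young KD for 22 other classical and 15 other patrolling monocyte genes, filled red where the edgeR adjusted p was under 0.05. The classical panel has 9 calls, all to the right of 0, and the patrolling panel 2 to the right and 1 to the left.

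Patrolling monocyte genes gave mixed directions. Of the 15 listed, 2 were higher and 1 lower in sick KD against young KD (median 0.01) beside 20.9% of all genes called in either direction, so 3 of 15 is near that share. They were the Fc receptor gene Fcgr4 (0.84 ± 0.21), the integrin gene Itgal (0.63 ± 0.11) and the scavenger receptor gene Cd36 (-1.27 ± 0.33). Between old KO and sick KD 3 were higher and 2 lower in old KO (median 0.36) beside 9.93% and 8.22% of all genes, with Itgax at 1.69 ± 0.46, Cd36 at 1.39 ± 0.33 and Fcgr4 at -0.70 ± 0.18 the largest. The list depended on which sick KD mouse was used: against young KD it held 6 genes higher and 0 lower without sick KD 1, and 1 higher and 7 lower without sick KD 2. Old KO against sick KD gave 0 higher and 2 lower without sick KD 1, 4 and 1 without sick KD 2, 1 and 2 without old KO 1, and 3 and 0 without old KO 2. In the interaction the median was 0.69 against 0.00 over all genes, the sign that Cx3cr1 had. Over all genes the interaction called 1122 in the main fit and 2919, of which 1777 were higher, with no filter beyond 1 count. There 0 of 15 passed in edgeR beside 7.43% of all genes, 4 had an unadjusted p under 0.05 and DESeq2 called 2 higher and 1 lower, while edgeR with no filter beyond 1 count called 8 higher and 0 lower, and 2 higher without sick KD 2 and 1 without old KO 2. In young KO against young KD 0 passed in edgeR (5 at an unadjusted p under 0.05, 1 in DESeq2), and in old KO against young KO also 0 (3, and 0 in DESeq2), although 6 were higher there without old KO 2.

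The values of the individual mice, looked at after the tests, show the same dependence. Ace, the angiotensin-converting enzyme, measured 4.56 and 48.7 CPM in the 2 sick KD mice and 50.2 and 8.55 in the 2 old KO mice, against 8.04 to 21.3 in the young. Cd300e measured 0.686 and 11.5 in sick KD and 12.8 and 1.79 in old KO mice, against 0.914 to 2.68 in the young. Sick KD 2 and old KO 1 were the 2 highest of the 8 mice for 8 of the 15 patrolling genes, namely Nr4a1, Treml4, Ace, Adgre4, Cd300e, Fabp4, Eno3 and Gngt2. The same was true of 3 of the 22 other classical genes, of 0 of the 9 members and of 4.50% of all 15102 genes tested. This pair of mice was picked after the values of the patrolling genes were seen, so these counts describe the values and test nothing. Cx3cr1 differed from these 8: it was low in both sick KD mice, also in sick KD 2, and high in both old KO mice.

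**Figure D4:**
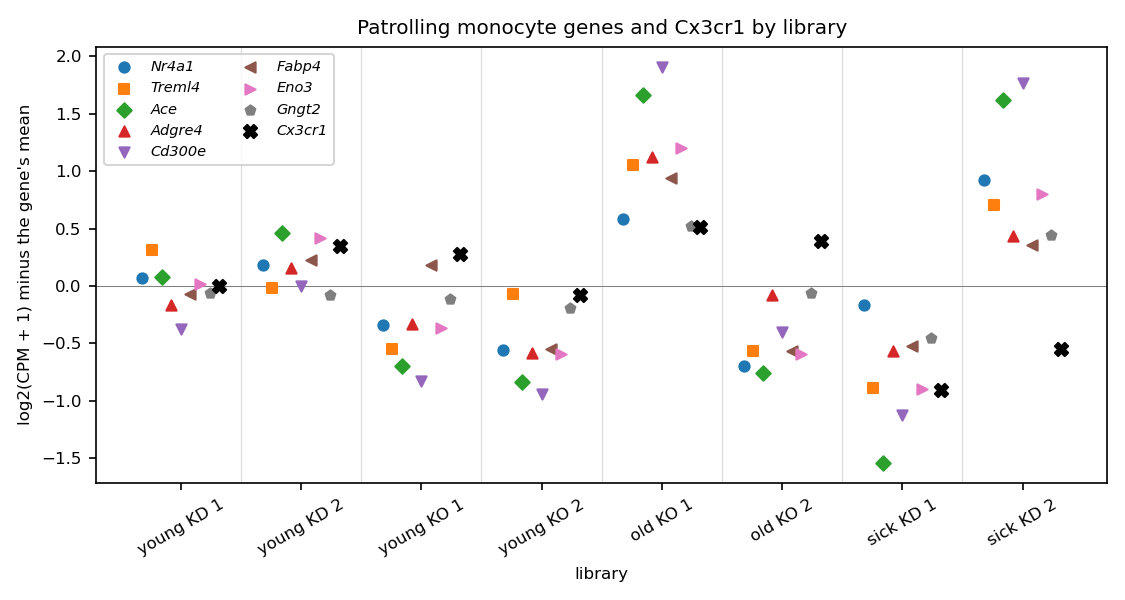
Level of the 8 patrolling genes that were highest in sick KD 2 and old KO 1, and of Cx3cr1 (black crosses), as log2(CPM + 1) minus the mean of the gene over the 8 libraries. The 8 genes were picked for their high values in sick KD 2 and old KO 1, so their place above 0 there follows from the choice. Cx3cr1 lies below 0 in both sick KD libraries and above 0 in both old KO libraries.

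The ligands of the chemokine receptors were scarce. Ccl2 measured 1.03 to 3.47 CPM, and Ccl7 and Ccl12 no more than 0.0909. Cx3cl1, which encodes fractalkine, had 3 and 2 counts in sick KD, 12 and 19 in old KO, 9 and 8 in young KO and 13 and 10 in young KD mice (0.0711 to 0.485 CPM), and passed in old KO against sick KD (2.22 ± 0.59, edgeR adjusted p = 0.0436) and in the interaction (2.71 ± 0.66, edgeR adjusted p = 0.0463). These are 2 to 19 counts a library. In old KO against sick KD, Cx3cl1 passed the filter on low counts only through the old KO mice, where it was high. No conclusion is drawn from that call, nor from the Cx3cl1 call in the interaction, which rests on the same low counts. The interaction calls in the list of ligands and partners, Cx3cl1 and Rxra, fell from 2 to 1 without sick KD 1 or sick KD 2 and to 0 without any of the other 6 mice. Fcer1g, the signalling chain of Fc receptors that Fcgr1 needs at the surface, was highest in sick KD marrow, where Fcgr1 was lowest. It measured 285 and 357 CPM in sick KD, 191 and 227 in old KO, 205 and 206 in young KO and 203 and 209 in young KD mice, with 0.63 ± 0.14 in sick KD against young KD (edgeR adjusted p = 0.0260) and -0.61 ± 0.17 in old KO against sick KD (edgeR adjusted p = 0.0451). Of the 11 ligands and partners, 3 had too few counts to be tested in old KO against sick KD, 2 were higher and 1 lower there, which became 1 and 0 without old KO 1 and 1 and 1 without any of the other 3 mice. In sick KD against young KD 1 was higher (Fcer1g) and 1 lower (Rxra), and the counts became 1 and 0 without sick KD 1, 2 and 1 without sick KD 2, 0 and 0 without young KD 1 and 0 and 1 without young KD 2.

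Rxra, the obligate partner of LXR alpha, was, like Nr1h3, lowest in sick KD marrow. It measured 32.3 and 47.2 CPM in sick KD, 76.3 and 74.3 in old KO, 64.5 and 63.3 in young KO and 61.7 and 63.5 in young KD mice, and passed in old KO against sick KD (0.92 ± 0.18, edgeR adjusted p = 0.0189), in sick KD against young KD (-0.66 ± 0.18, edgeR adjusted p = 0.0485) and in the interaction (0.89 ± 0.22, edgeR adjusted p = 0.0475). Nr1h2, the LXR beta gene, was flat at 51.8 to 66.3 CPM. Among 8 LXR target genes, old KO exceeded sick KD past the threshold in 3 and fell below it in 1: the cholesterol exporter Abca1 (0.68 ± 0.17), the LDL receptor ligase Mylip (0.66 ± 0.18) and Lpcat3 (0.45 ± 0.11) against Smpdl3a (-0.63 ± 0.15). These counts stand beside 9.93% of all genes higher and 8.22% lower. Without sick KD 1 or without old KO 1 edgeR called 0 of the 8, without sick KD 2 and in DESeq2 5 were higher and 1 lower, without old KO 2 3 and 0, and with the trends in GC content, length and span removed 2 were higher and 2 lower. In sick KD against young KD only Mylip (-1.01 ± 0.18) and Smpdl3a (0.58 ± 0.12) passed, in opposite directions, beside 20.9% of all genes. The counts were 1 higher and 4 lower without sick KD 2, and 0 higher and 1 lower without either young KD mouse.

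Genes of other marrow cells moved in the same mice, and their part in the results above was not tested. Resident macrophages, which also express Fcgr1 and Nr1h3, clear dead cells and red cells. Of their 12 listed genes, 10 were lower and 0 higher in sick KD against young KD (11.4% of all genes were lower). The same count of 10 was higher in old KO against sick KD (9.93% of all genes) and in the interaction (7.43% in either direction). In young KO against young KD 0 of the 12 passed in edgeR, and 6 had an unadjusted p under 0.05. There 9 were higher and 0 lower without overlap between the groups, where 27.0% of all genes did not overlap. In the interaction a left-out mouse gave 4 to 10 calls, with 4 without either young KO mouse, 5 without either young KD mouse and 6 without sick KD 1 or old KO 1. Their summed level was 320 and 285 CPM in sick KD mice, 602 and 499 in old KO, 456 and 428 in young KO and 346 and 412 in young KD mice. Adgre1 and Hmox1 were the 2 genes not called in sick KD against young KD. Adgre1, the most abundant and a large part of that sum, measured 185 and 161 CPM in sick KD and 126 and 166 in young KD mice. Hmox1 measured 56.0 and 54.3 CPM in sick KD and 48.7 and 47.1 in young KD mice. The largest change was that of Cd5l, at 1.25 and 2.35 CPM in sick KD against 16.6 and 16.2 in old KO mice (3.18 ± 0.31, edgeR adjusted p = 0.00416), and C1qa followed at 2.94 ± 0.21. The defining marker Timd4 stood at 0.323 and 0.391 CPM in sick KD mice and at 1.17 to 2.36 elsewhere.

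Dendritic cells, which also carry Cx3cr1, had 5 of 9 genes lower and Flt3 higher in sick KD against young KD. Beside these, 11.4% of all genes were lower and 9.45% higher. The summed level of the 9 was 60.8 and 56.2 CPM in sick KD, 95.4 and 82.5 in old KO, 76.8 and 54.9 in young KO and 71.0 and 79.4 in young KD mice. Flt3 alone measured 49.1 and 45.0 CPM in sick KD and 25.1 and 34.5 in young KD mice. It thus made up most of the sum in sick KD mice, and it was higher than in young KD mice although the sum was lower. Cd209a, a marker of monocyte-related dendritic cells, measured 1.41 and 3.66 CPM in sick KD and 22.9 and 16.4 in old KO mice (2.94 ± 0.42, edgeR adjusted p = 0.00785). All 8 erythroid genes were lower in sick KD than in both other groups it was compared with. Of all genes, 11.4% were lower in sick KD than in young KD and 9.93% were higher in old KO than in sick KD. The erythroid sums were 939 and 1339 CPM in sick KD and 1909 to 5769 elsewhere. B-cell genes summed to 35.7 and 85.0 CPM in sick KD, 112 and 163 in old KO and 484 to 696 in young mice. Eosinophil and basophil genes summed to 429 and 488 CPM in sick KD and 549 to 1355 elsewhere. Neutrophil genes summed to 6403 and 6660 CPM in sick KD and 3999 to 5116 elsewhere, mostly from the precursor genes Mpo, Prtn3 and Elane. The sums of megakaryocyte genes (72.2 to 326 CPM) and of T or NK cell genes (73.1 to 104 CPM, with Nkg7 the most abundant) overlapped between sick KD and old KO mice. Of the 8 T or NK cell genes, however, 3 were higher in old KO than in sick KD, beside 9.93% of all genes. Among them was Cd4, at 7.82 and 5.46 CPM in old KO against 1.21 and 1.81 in sick KD mice. CPM is relative to the library, so each level above is a level relative to the RNA of the whole marrow.

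For each member, the 3 protein-coding genes with the most similar profile were sought among 8674 other genes with a mean of at least 10 CPM, by the root mean square difference of centred log2(CPM + 1) over the 8 libraries. Ly6c2 was nearest to Tmem205 (0.04), Plac8 (0.06) and Tyrobp (0.06), against a standard deviation of its own profile of 0.22. Cx3cr1 was nearest to Kmo (0.12), Prr5l (0.13) and Padi2 (0.13), against 0.47. Fcgr1 was nearest to Slfn5 (0.15), Rarg (0.16) and Rnf144a (0.18), against 0.43, and Ms4a6c to Aatk, Eef2kmt and Tbc1d32 (0.09 each), against 0.34. Cd14 had no close match: its nearest were Hsph1 (0.18), Nfkbia (0.20) and Gna15 (0.21), against 0.40. For F13a1 the nearest included its fellow monocyte gene Ms4a6b (0.09), with Tctex1d2 and Foxred2. Ccr2 was nearest to Pla2g4a, Evi2a and Dnajb14, Lyz2 to Prcp, Fut8 and Echs1, and Nr1h3 to Polr3gl, Cyren and Zfp526. Among the members, Ly6c2 and Lyz2 were nearest to each other (0.09), as were F13a1 and Ms4a6c (0.115). With a pseudocount of 5, 18 of the 27 matches were named again. None of those of Nr1h3, which averaged only 3.05 CPM, was among them.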

How the data were processed

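The deposited files hold raw counts of reads per gene, 1 file per mouse. According to the study's methods the authors prepared TruSeq Stranded mRNA libraries, mapped their reads with TopHat 2.0.10 on mm10, processed them with SAMtools, counted them on Ensembl genes with HTSeq and tested them with DESeq. HTSeq assigns no read that is ambiguous or aligned to several places, so genes with close copies lose reads. The 5 HTSeq tallies were left out of library sizes and tests, and 26.9% to 42% of the uniquely aligned reads were outside genes. Of 41214 gene IDs, 40340 were matched to a symbol in GENCODE M21 (GRCm38), which also gave positions and exon lengths.

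Counts were scaled by TMM to CPM. Each comparison was fitted on its own 4 mice, and the interaction on all 8, with edgeR 4.0.16 (R 4.3.3), filterByExpr, glmQLFit, glmQLFTest and Benjamini-Hochberg adjustment over all genes at 0.05. Standard errors were derived from the F statistic. The steps were tested on simulated data with 200 changed genes. DESeq2 1.42.0, other filters, all 8 mice in a joint fit, removal of GC and length trends, and leaving out each mouse were the alternatives. The replicates of each group differed by more than counting noise (chi-square per degree of freedom 23.5 to 38.8), so none was a copy. The labels name individual mice. The tests set each difference against the variation between mice of a group, which is estimated with information shared across genes.

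The 9 genes and all other lists were chosen with earlier results of these data known. Named were the members, their paralogs, the 3 largest changes past the threshold without overlap in each related list, the most abundant or most changed genes of other cell types, and the 3 nearest profiles of each member. Other genes named (Csf1r, Nr1h2, Ccl2, Ace, Cd300e and those listed to make up a count) were chosen after their values were seen. Promoter sequences are from RefSeq, with a match for each of the 4 genes shown. A further gene of the list of other classical monocyte genes is not reported here and was left out of that list's counts.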

Additional observations from a re-analysis of the deposited data

Results flagged for a closer look

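The difference between KO and KD mice in Cx3cr1, the fractalkine receptor gene, was not the same in young and in older mice. It was -0.08 ± 0.16 on the log2 scale between young KO and young KD and 1.18 ± 0.16 between old KO and sick KD, and the test of the difference between these values gave 1.25 ± 0.25 (edgeR adjusted p = 0.0297). Both old KO mice stood above both sick KD mice, at 218 and 201 against 81.0 and 104 CPM, while the young groups overlapped. The older comparison differs in health as well as in genotype, and these cannot be told apart. The call held in 2 of the 8 fits that left out a mouse (without sick KD 2 and without old KO 2). No other of the 9 genes met this criterion, and groups of 2 are too small to look for a mouse far from its group.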

How the results depend on the processing

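No paired analysis was possible because the labels name individual mice and give no number that is shared between groups.

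Between old KO and sick KD, Cx3cr1, Fcgr1 and Ms4a6c were called by edgeR in the main fit. They were also called under all 6 alternatives to filter, tool, scaling and fit, which include DESeq2. The Ms4a6c call depended on single mice, as given above. In sick KD against young KD the 3 calls became 6 in DESeq2 (with F13a1, Lyz2 and Fcgr1) and 5 with nuclear protein-coding genes only, with no filter beyond 1 count, with all 8 mice fitted together and with trends in GC content, length and gene span removed, and 1 to 4 with a mouse left out. In young KO against young KD the 0 calls became 1 (Fcgr1) in DESeq2 and with no filter. In the interaction the 1 call became 2 (with Ms4a6c) in DESeq2 and with no filter, and 0 to 1 with a mouse left out. The cause was not tested.

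A sign changed for genes far from the threshold. With the trends removed, Ccr2 turned to 0.074 in old KO against sick KD and to 0.026 in the interaction. With a mouse left out, the log2 fold changes that changed sign ranged as follows. In young KO against young KD, Ccr2 ranged from -0.18 to 0.23, Cd14 from -0.57 to 0.65, Nr1h3 from -0.23 to 0.15, Cx3cr1 from -0.26 to 0.11, Lyz2 from -0.18 to 0.081, F13a1 from -0.019 to 0.51 and Ms4a6c from -0.049 to 0.43. Between old KO and sick KD, Ccr2 ranged from -0.21 to 0.039 and Cd14 from -0.23 to 0.61. In sick KD against young KD, Ccr2 ranged from -0.011 to 0.38 and Cd14 from -0.62 to 0.62. Between old and young KO, Fcgr1 ranged from -0.25 to 0.14, Ly6c2 from -0.092 to 0.25, Cd14 from -0.25 to 0.57, Nr1h3 from -0.28 to 0.19, Ccr2 from -0.053 to 0.24 and Ms4a6c from -0.044 to 0.19. In the interaction, Ccr2 ranged from -0.32 to 0.087 and Cd14 from -0.41 to 0.82. Cd14 passed without old KO 1 (0.61, edgeR adjusted p = 0.0494) and without young KD 2 (-0.62, edgeR adjusted p = 0.0449), so its value rests on single mice.

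Over all genes the count of calls varied more. In young KO against young KD the 6 calls became 27 in DESeq2, 119 with no filter and 3 with protein-coding genes only or all mice fitted together. For old against young KO the 138 became 383 in DESeq2, 796 with no filter and 81 with protein-coding genes only. For old KO against sick KD the 2626 became 4325 with no filter and 4200 with all mice together. In sick KD against young KD the 3063 became 4869 with the trends removed, and in the interaction the 1122 became 1951 in DESeq2, 2919 with no filter and 2126 with the trends removed. Removing the trends shifted the median of all genes by -0.11 in old KO against sick KD, 0.11 in sick KD against young KD and -0.14 in the interaction, and the share of calls that were higher went from 54.7% to 40.2%, from 45.2% to 62.7% and from 58.2% to 34.7%.

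With 2 mice a group, small differences are not detectable, and Nr1h3, at 38 to 140 counts, rests on the fewest counts of the 9. The largest standard error of the 9 was that of Cd14 in every fit but old KO against sick KD, where it was that of Nr1h3.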
